A study of Mus musculus with 21 samples.

Results

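Splenic CD11b+ myeloid cells were compared with LSK cells of the bone marrow (BM) in terminally ill leukemic mice of stage 3 (S3). LSK cells are lineage-negative, Sca-1-positive and c-Kit-positive, and hold hematopoietic stem cells and multipotent progenitors. The comparison used 6 of the 21 RNA-seq libraries of the series, which were 3 libraries of spleen CD11b+ cells from animals 540, 815 and 640 and 3 libraries of LSK cells from animals 540, 815 and 768, identified by their labels. All 6 came from mice of the genotype MxCre;Ptpn11D61Y/+. In these mice Cre is driven by the interferon-inducible Mx1 promoter, and poly I:C, which every mouse of the study received, removes a stop cassette from 1 Ptpn11 allele, so that SHP2 with the substitution D61Y is expressed beside the normal protein in blood cells. The share of recombined cells in a sample was not measured here. CD11b+ cells were enriched on magnetic columns, and LSK cells were sorted after lineage depletion. All 21 libraries entered 1 fit, so those outside the comparison also took part in the filter, the scaling and the estimate of spread. Values set beside the main comparison came from the 3 S3 libraries of BM CD11b+ cells (animals 540, 815 and 640) and from MxCre mice. The latter, with 2 libraries each of spleen CD11b+ and LSK cells, carry Cre and normal Ptpn11 and also received poly I:C. In 1 alternative, 2 libraries of each cell type from Ptpn11D61Y/+ mice, the other control genotype, which also received poly I:C, were averaged with those of MxCre mice. S3 was reached several months after poly I:C, and the age of each mouse was not given in the sources used here.

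Organ, cell type and way of isolation changed together between the groups, so that their parts cannot be told apart. In bulk samples, fewer cells of a type and less RNA per cell cannot be told apart either. Ptpn11 encodes the tyrosine phosphatase SHP2, which passes signals from cytokine and growth factor receptors to RAS and the MAP kinases, and activating mutations of it are known from juvenile myelomonocytic leukemia. As stem cells mature into myeloid cells they are known to switch off stem cell transcription factors, to make granule proteins in successive waves, to acquire receptors for microbes and antibodies, and to leave the cell cycle. The members of the BCL-2 family set the threshold for mitochondrial apoptosis, a question that the study put to splenic myeloid cells and LSK cells of these mice.

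The LSK libraries held 101217470, 68319460 and 93695708 counts for animals 540, 815 and 768, and the spleen CD11b+ libraries held 77117172, 61427290 and 80382578 counts for animals 540, 815 and 640. All values below are given in this order of animals, and spleen cells stands for the S3 spleen CD11b+ cells. The LSK libraries were more alike than the spleen libraries. Over the 19555 genes tested, the median SD between libraries was 0.192 log2 CPM (CPM, counts relative to library size; TMM scaling, prior count of 2) in LSK cells and 0.703 in spleen cells.

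The label of animal 540 was contradicted by sex-linked transcripts. LSK 540 held 1 count of Xist, which is transcribed from the inactive X chromosome of females, and 15172 counts of 4 Y-linked genes. Spleen 540 held 712 counts of Xist together with 4225 counts of these Y-linked genes, and BM CD11b+ 540 held 2780 and 958. Each of the other 4 libraries compared carried 1 of these signals, with Xist in both libraries of animal 815 and in LSK 768, and Y-linked transcripts in spleen 640. Whether these libraries hold RNA of more than 1 animal was not tested. Results are therefore also given with both libraries of animal 540 left out (without animal 540) where that moves a count of 3 or more calls by more than 1.5 times. Spleen 640 stood apart as well, with a Pearson correlation over genes of 0.939 to spleen 540 and 0.894 to spleen 815, whereas spleen 540 and 815 correlated at 0.965.

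The sorted populations were checked against their markers. Itgam (ENSMUSG00000030786, chromosome 7, 128062640 to 128118491) encodes the CD11b chain itself and stood at 5.40, 6.56 and 6.12 log2 CPM in LSK cells and at 9.46, 7.53 and 10.70 in spleen cells (log2 fold change of spleen over LSK cells, log2 FC, 3.63 ± 0.71 (SE), edgeR adjusted p = 0.00182). All spleen libraries lay above all LSK libraries, although spleen 815 exceeded LSK 815 by less than 1 log2 unit. Kit, the stem cell factor receptor of the LSK gate, stood at 8.44, 8.17 and 8.32 log2 CPM in LSK cells and at 5.17, 6.18 and 3.70 in spleen cells (log2 FC -2.98 ± 0.54, edgeR adjusted p = 0.00109). The LSK libraries were nearly identical and all above the spleen libraries. Ly6a, which encodes Sca-1, the other marker of the gate, did not follow it. Its level was 5.41, 6.25 and 6.18 log2 CPM in LSK cells and 7.18, 8.29 and 1.68 in spleen cells (log2 FC 1.27 ± 0.96, edgeR adjusted p = 0.333). Spleen 540 and 815 were above every LSK library and spleen 640 below, so that Ly6a did not separate the populations in this direction. Among the other markers of stem and progenitor cells, Cd34, Hlf, Meis1 and Mecom lay lower in every spleen library, and so did Flt3, which did not pass the test (log2 FC -1.84 ± 0.72, edgeR adjusted p = 0.0656). Among those of myeloid cells, Lyz2, S100a8, S100a9, Ly6g and Csf1r were higher in every spleen library and passed the test, whereas Ly6c2 (log2 FC 1.10 ± 0.55, edgeR adjusted p = 0.148) and Csf3r (log2 FC 1.49 ± 0.61, edgeR adjusted p = 0.0815) did not.

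**Figure D1:**
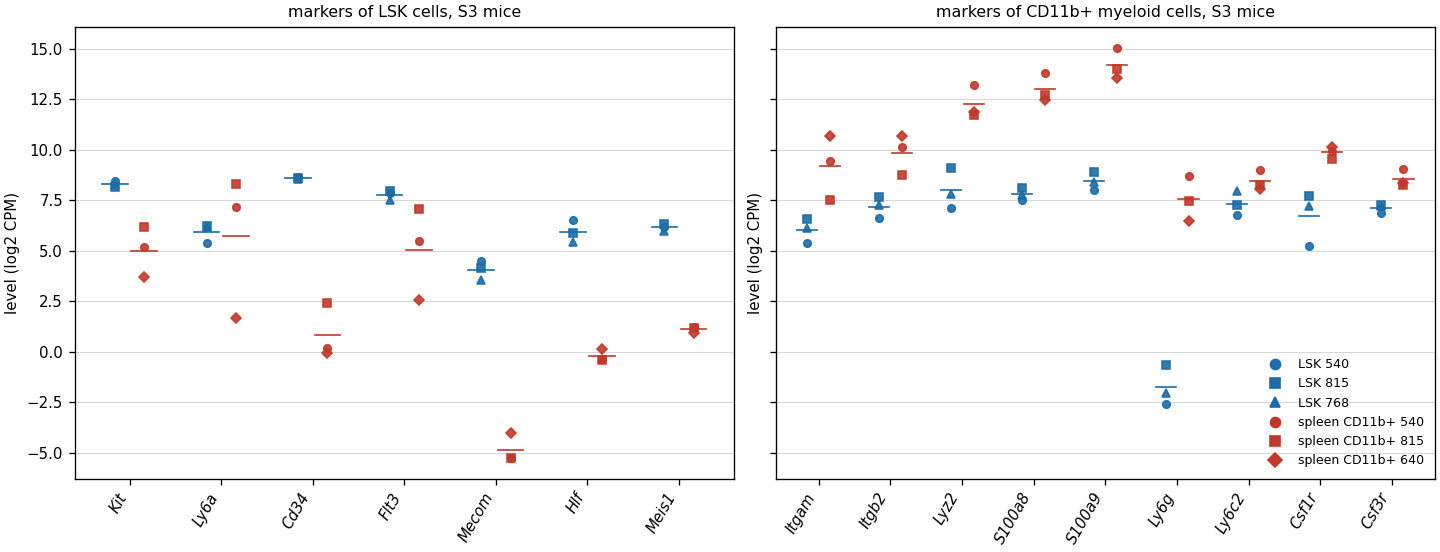
Levels of markers of LSK cells (left) and of CD11b+ myeloid cells (right) in log2 CPM, with 1 symbol per library (blue, S3 LSK cells; red, S3 spleen CD11b+ cells; the shape gives the animal) and a bar at each group mean. The groups are separated for each gene shown except Ly6a, for which spleen 640 lies at 1.68.

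Differences between the populations were wide. Of the 19555 genes tested, 5349 (27.4%) passed an adjusted p under 0.05 in edgeR, 3090 of them higher (15.8%) and 2259 lower (11.6%) in spleen cells, and the median over all genes tested was a log2 FC of 0.02. These shares are the background for each list of genes below.  The 3 spleen libraries were all above the 3 LSK libraries for 4366 genes (22.3%) and all below them for 5683 (29.1%), and the groups overlapped for 9506. Tested against a change of more than 1 log2 unit, 2295 genes (11.7%) passed. Without both libraries of animal 540 the count of calls was 1569, without spleen 640 it was 6679, and without LSK 540, 815 or 768 or spleen 540 it was 3006, 3349, 3251 and 3463. With scaling by library size and no composition factor, the median of all genes moved to -0.59, and the calls divided into 1730 higher and 4171 lower.

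The 10 largest rises and falls named next are those of genes whose groups did not overlap and whose higher group averaged 5 log2 CPM or more. Among the rises, Marco, a scavenger receptor of splenic marginal zone macrophages, had 3116, 6072 and 1534 counts in spleen cells and 0 in each LSK library, a level at least 2469-fold higher with a floor of 3 counts per library. Gm5483, a gene of the stefin A family of protease inhibitors, had 3403, 1459 and 3421 counts in spleen cells and 2, 0 and 0 in LSK cells. Stfa2l1 of the same family and Retnlg, a resistin-like protein of neutrophils, rose by 10.84 and 10.24 log2 units. Pla2g2d, a secreted phospholipase, stood at 7.81, 6.47 and 2.03 log2 CPM in spleen cells and at -2.80, -3.06 and -2.28 in LSK cells (log2 FC 9.63 ± 1.39, edgeR adjusted p = 0.000210). It was lowest in spleen 640 but did not overlap with LSK cells in any library. The remaining ones were the alpha-globins Hba-a1 and Hba-a2, Ly6g, Cxcl2 and Apol11b, a member of the apolipoprotein L family (log2 FC 9.13 ± 1.5, edgeR adjusted p = 0.000553).

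Among the falls, Nwd1 had 5811, 3242 and 4359 counts in LSK cells and 5, 0 and 8 in spleen cells. Angpt1, a ligand of the receptor TIE2, stood at 7.48, 6.74 and 6.70 log2 CPM in LSK cells and at -1.15, -1.37 and -2.14 in spleen cells (log2 FC -8.63 ± 0.60, edgeR adjusted p = 2.32e-06). All 3 spleen libraries were near the floor of detection. Dntt, the terminal transferase of early lymphoid progenitors, stood at 7.98, 8.02 and 7.54 log2 CPM in LSK cells and at 0.53, -0.27 and 0.01 in spleen cells (log2 FC -7.76 ± 1.36, edgeR adjusted p = 0.00101). Slc22a3, an organic cation transporter, Adgrl4 and Muc13, which encode an adhesion receptor and a transmembrane mucin, and Afap1l1 fell by 8.41, 7.73, 7.64 and 7.06 on the log2 scale. The immunoglobulin segment Igkv14-126 was also among them (log2 FC -8.50), with 17123, 11703 and 2434 counts in LSK cells, and Cd34 was another of the 10.

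Of the 30 stem and multipotent progenitor genes, 20 were lower in spleen cells and none higher, where 11.6% of all genes tested were lower and 15.8% higher, and the median log2 FC was -3.41. Cd34, a sialomucin of progenitors, stood at 8.68, 8.61 and 8.58 log2 CPM in LSK cells and at 0.18, 2.40 and -0.03 in spleen cells (log2 FC -7.35 ± 0.79, edgeR adjusted p = 2.73e-05). Spleen 815 kept the highest level of the 3, still far below LSK cells. Mecom, a transcription factor required by stem cells, had 3046, 1711 and 1553 counts in LSK cells and 0, 0 and 3 in spleen cells (edgeR adjusted p = 2.99e-05). Of the spleen libraries, spleen 640 alone held any read of it. Tek, which encodes TIE2, Myct1 and Mycn were at or near 0 counts in spleen 815 and changed by -6.88, -9.00 and -7.81 log2 units. With animal 540 left out, 14 of the 30 passed, all lower.

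HOXA cluster genes and their partners fell too, with 8 of 12 tested lower, 1 higher and a median of -2.57. Hoxa9 (ENSMUSG00000038227, chromosome 6, 52223100 to 52231089), a homeobox gene of self-renewing progenitors, stood at 5.20, 5.10 and 4.85 log2 CPM in LSK cells and at -2.76, -1.70 and -1.15 in spleen cells (log2 FC -6.90 ± 0.59, edgeR adjusted p = 7.95e-06). No spleen library came within 5 log2 units of an LSK library. Meis1, the cofactor of HOXA9, stood at 6.18, 6.35 and 6.0 log2 CPM in LSK cells and at 1.25, 1.17 and 0.92 in spleen cells (log2 FC -5.08 ± 0.49, edgeR adjusted p = 1.11e-05), and the 3 spleen libraries were nearly identical. The related cofactor Pbx3 was higher in spleen cells instead, at 3.91, 3.82 and 4.26 against 2.72, 2.51 and 2.34 log2 CPM (log2 FC 1.48 ± 0.38, edgeR adjusted p = 0.0100), and its call was lost without LSK 768 (highest adjusted p = 0.0532). Pbx3 was not called without animal 540 or with scaling by size alone either. Between 3 and 5 of the list were called lower without LSK 540, 815 or 768 or spleen 540 or 815, and 3 without animal 540.

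Of the 18 myeloid transcription factors, 11 were higher and 1 was lower in spleen cells, with a median of 2.35. Spic, which drives the program of red pulp macrophages, stood at 7.20, 7.46 and 7.17 log2 CPM in spleen cells and at 1.36, 0.36 and 1.13 in LSK cells (log2 FC 6.29 ± 0.97, edgeR adjusted p = 0.000341). It was even across the spleen libraries and low in all LSK libraries. Cebpb, a C/EBP factor of emergency granulopoiesis, stood at 8.14, 8.88 and 6.32 log2 CPM in spleen cells and at 1.96, 3.56 and 2.78 in LSK cells (log2 FC 5.21 ± 1.04, edgeR adjusted p = 0.00216) and was lowest in spleen 640. Spi1, which encodes PU.1 (log2 FC 2.29), and Cebpe, the factor of late granulocytes (2.34), passed the test as well and were named after their values were seen. Cebpa (log2 FC 0.20 ± 0.38, edgeR adjusted p = 0.719) and Irf8 (log2 FC -0.50 ± 0.42, edgeR adjusted p = 0.386), which act at the branch into granulocytes and monocytes, overlapped between the populations. Gfi1, a repressor needed for neutrophil development, was the factor that was lower (log2 FC -1.63 ± 0.49, edgeR adjusted p = 0.0224), and its call was lost without LSK 768 or spleen 815 (highest adjusted p = 0.0904).

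Granule genes divided by the stage at which they are known to be made. Primary granules form in promyelocytes, and secondary and tertiary granules form later in neutrophil maturation. Of 9 primary granule genes tested, 7 were lower and 1 higher in spleen cells (median -1.77). Of 24 secondary and tertiary granule and late neutrophil genes, 23 were higher and none lower (median 5.79). Mpo (ENSMUSG00000009350, chromosome 11, 87793581 to 87804413), myeloperoxidase, stood at 11.64, 11.36 and 11.90 log2 CPM in LSK cells and at 5.28, 6.11 and 7.19 in spleen cells (log2 FC -5.25 ± 0.63, edgeR adjusted p = 5.2e-05), which is 38-fold lower. Ctsg, cathepsin G, stood at 8.62, 8.49 and 9.04 log2 CPM in LSK cells and at 2.86, 2.67 and 5.16 in spleen cells (log2 FC -4.70 ± 0.84, edgeR adjusted p = 0.00104). In both genes spleen 640 was the highest of the spleen libraries and remained below every LSK library. Elane, neutrophil elastase, and Prtn3, proteinase 3, fell by 3.70 and 2.98 on the log2 scale (edgeR adjusted p = 0.000661 and 0.00246). Ms4a3, Prss57 and Gstm1 fell by 1.51, 1.77 and 1.16, and each lost its call without LSK 540, among other libraries (highest adjusted p = 0.0885, 0.0826 and 0.0864). Ctsc, the protease that activates these enzymes, rose instead, at 8.74, 8.30 and 9.25 against 5.50, 5.94 and 5.71 log2 CPM (log2 FC 3.09 ± 0.42, edgeR adjusted p = 0.000141), while the inhibitor Serpinb1a did not pass the test (log2 FC 0.81 ± 0.43, edgeR adjusted p = 0.165). Without LSK 540, LSK 768 or spleen 540, or without animal 540, 4 primary granule genes were called lower.

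Late neutrophil genes were among the most abundant in spleen cells. S100a9 and S100a8, the subunits of calprotectin, had the highest levels per exon length there, with 77130 ± 33776 and 25245 ± 10378 TPM (counts per exon length, scaled to the same sum in each library; SD, n = 3), against 2913 ± 904 and 1396 ± 303 TPM in LSK cells. Ngp, neutrophilic granule protein, followed after Hbb-bs with 20134 ± 10955 TPM. Retnlg stood at 12.22, 9.90 and 9.93 log2 CPM in spleen cells and at 0.84, 1.34 and 0.36 in LSK cells (log2 FC 10.24 ± 1.14, edgeR adjusted p = 2.97e-05). Mmp9, the gelatinase of tertiary granules, stood at 10.63, 8.89 and 10.43 log2 CPM in spleen cells and at 1.24, 1.66 and 1.48 in LSK cells (log2 FC 8.71 ± 0.65, edgeR adjusted p = 2.43e-06). Ly6g, the surface marker of neutrophils, stood at 8.71, 7.45 and 6.48 log2 CPM in spleen cells and at -2.59, -0.64 and -2.04 in LSK cells (log2 FC 9.47 ± 1.11, edgeR adjusted p = 4.39e-05). Spleen 540 carried the highest level of these 3 genes, and no LSK library reached any spleen library. Ltf, lactoferrin, was named for its promoter after its values were seen, and stood at 13.55, 12.63 and 12.57 log2 CPM in spleen cells and at 5.0, 6.79 and 5.50 in LSK cells (log2 FC 7.02 ± 0.81, edgeR adjusted p = 4.06e-05). Il1r2, the decoy receptor for interleukin-1, rose by 5.93 log2 units. With animal 540 left out, 20 of the 24 were called higher.

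**Figure D2:**
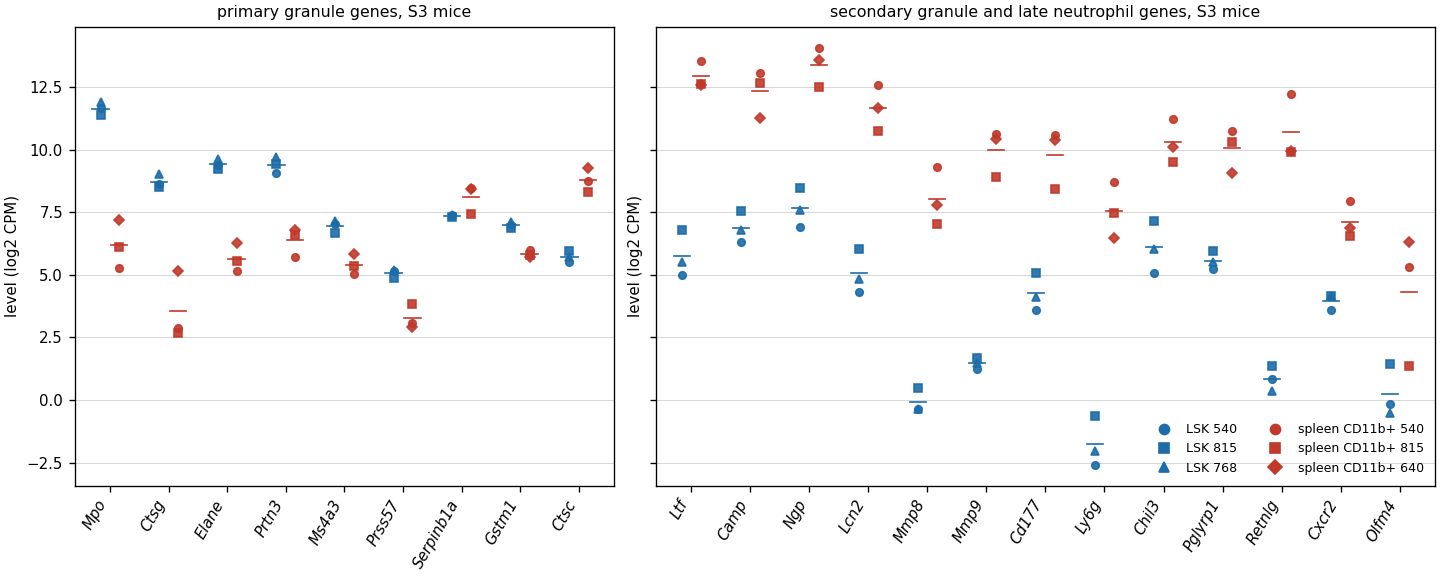
Levels of primary granule genes (left) and of secondary granule and late neutrophil genes (right) in log2 CPM, with 1 symbol per library (blue, S3 LSK cells; red, S3 spleen CD11b+ cells; the shape gives the animal) and a bar at each group mean. Mpo, Ctsg, Elane and Prtn3 lie higher in every LSK library, whereas Ctsc and each gene of the right panel except Olfm4 lie higher in every spleen library.

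Because the granule classes moved in opposite directions, their promoters are shown for 1 gene of the first class and 2 of the second. The 120 bases are given 5′ to 3′ on the strand of the gene, from RefSeq on GRCm38.p6, and end 65 (Elane), 21 (Ltf) and 61 (Ngp) bases before the RefSeq start. Capitals mark the letters GAGGAA, a core bound by PU.1, in Elane (chr10:79886127-79886246, plus strand) and TTNNGCAA, a form of the site bound by C/EBP factors, in Ltf (chr9:111019151-111019270, plus strand) and Ngp (chr9:110419627-110419746, plus strand), where it lies on the other strand.
Elane: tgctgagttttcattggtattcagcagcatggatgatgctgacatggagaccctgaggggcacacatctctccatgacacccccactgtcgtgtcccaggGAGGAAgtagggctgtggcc
Ltf: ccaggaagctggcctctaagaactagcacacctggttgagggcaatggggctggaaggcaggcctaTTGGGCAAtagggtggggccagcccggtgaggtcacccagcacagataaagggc
Ngp: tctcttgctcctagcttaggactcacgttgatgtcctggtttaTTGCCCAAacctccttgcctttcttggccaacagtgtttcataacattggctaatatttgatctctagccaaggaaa
Within 250 bases before the start, TTNNGCAA or its reverse complement was found in 7 of 21 matched promoters of the late class (33.3%), in 0 of 7 of the primary class and in 9.04% of all 19111 promoters. GAGGAA was found in 13 of 21 (61.9%), in 5 of 7 (71.4%) and in 22.4%. The 2 motifs share no letters where they are marked. A match is a description of the letters alone.

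Monocyte genes were higher for 15 of 22 and lower for none, with a median of 3.12. Cd14, the coreceptor for lipopolysaccharide, stood at 7.54, 6.81 and 8.24 log2 CPM in spleen cells and at 0.75, 1.63 and 1.18 in LSK cells (log2 FC 6.43 ± 0.83, edgeR adjusted p = 9.15e-05). Vcan and Fn1, extracellular matrix genes of classical monocytes, were highest in spleen 640, with Fn1 at 6.56, 4.30 and 9.36 against 2.5, 4.14 and 3.37 log2 CPM (log2 FC 4.53 ± 1.27, edgeR adjusted p = 0.0157). For Fn1 its call was lost without LSK 540, LSK 768 or spleen 640 (highest adjusted p = 0.0939).

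Macrophage genes rose together, with 19 of 20 higher, none lower and a median of 4.56. C1qa and C1qb encode chains of the complement component C1q. C1qa stood at 11.0, 11.60 and 9.80 log2 CPM in spleen cells and at 3.94, 2.31 and 3.65 in LSK cells (log2 FC 7.53 ± 1.08, edgeR adjusted p = 0.000198). Cd5l, a secreted protein of tissue macrophages, stood at 8.60, 9.56 and 8.92 log2 CPM in spleen cells and at 2.18, -0.87 and 2.2 in LSK cells (log2 FC 7.41 ± 1.16, edgeR adjusted p = 0.000379). Vcam1, by which splenic macrophages hold other cells, stood at 9.08, 9.39 and 7.17 log2 CPM in spleen cells and at 5.0, 4.24 and 4.87 in LSK cells (log2 FC 4.08 ± 0.81, edgeR adjusted p = 0.00203). Spleen 640 was lowest for C1qa and Vcam1, and all spleen libraries exceeded all LSK libraries. The summed level of the list was 16349, 16201 and 9525 CPM in spleen cells and 490, 753 and 626 CPM in LSK cells, with Apoe the most abundant member in each library.

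Genes for presentation on MHC class II were higher for 9 of 11, with a median of 3.27. Cd74, the invariant chain, stood at 13.20, 14.10 and 10.73 log2 CPM in spleen cells and at 9.43, 10.01 and 8.95 in LSK cells (log2 FC 3.70 ± 0.68, edgeR adjusted p = 0.00125). H2-Eb1, an MHC class II beta chain, stood at 11.74, 12.14 and 9.37 log2 CPM in spleen cells and at 8.07, 8.62 and 7.44 in LSK cells (log2 FC 3.37 ± 0.72, edgeR adjusted p = 0.00341). For Cd74 and H2-Eb1, spleen 640 was the lowest spleen library. The median level of B cell genes, which B cells express beside MHC class II, was likewise lowest there, at 6.42, 5.92 and 2.70 log2 CPM in spleen cells against 2.58, 2.54 and 1.75 in LSK cells, and its part was not tested. Of 13 dendritic cell genes, 4 were higher and none lower. Another 5 lay below LSK cells in every spleen library, as did 29.1% of all genes. In DESeq2 3 were called lower, and with scaling by size alone 4. Itgax, which encodes CD11c, stood at 8.83, 9.34 and 9.11 log2 CPM in spleen cells and at 5.08, 5.87 and 5.50 in LSK cells (log2 FC 3.59 ± 0.74, edgeR adjusted p = 0.00257), and Cd209a, Ccr7 and Batf3 rose by 5.57, 4.91 and 4.69. Ccr7 and Cd209a were at 2.04 and 1.73 log2 CPM in spleen 640, close to LSK cells. Leaving out animal 540 left 5 MHC class II genes called higher.

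Receptors that sense microbes followed the same direction. Of 34 pattern recognition receptor genes tested, 23 were higher and none lower (median 2.30). Fpr2 and Fpr1, receptors for formylated bacterial peptides, stood at 8.09, 6.66 and 7.5 and at 6.91, 5.74 and 6.20 log2 CPM in spleen cells, with log2 FCs of 6.60 and 5.61. Clec4n, which encodes the fungal receptor dectin-2, stood at 6.59, 6.44 and 5.49 log2 CPM in spleen cells and at -1.61, -2.16 and -1.72 in LSK cells (log2 FC 8.19 ± 1.26, edgeR adjusted p = 0.000335). Of 14 Fc and complement receptor genes, 12 were higher and 1 was lower (median 3.61). C5ar1, the receptor of C5a, stood at 7.87, 6.35 and 7.66 log2 CPM in spleen cells and at 0.60, 2.07 and 1.31 in LSK cells (log2 FC 5.99 ± 0.65, edgeR adjusted p = 2.73e-05). Fcer1a, the IgE receptor chain of mast cells and basophils, was the one that was lower (log2 FC -3.23 ± 1.08, edgeR adjusted p = 0.0363), and its call was lost without any 1 of the 6 libraries (highest adjusted p = 0.0879). Leaving out animal 540 left 7 of the 14 called higher.

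The NADPH oxidase makes superoxide in phagocytes, and 6 of its 7 genes were higher in spleen cells. Cybb and Cyba encode the membrane subunits. Cyba stood at 10.51, 11.47 and 9.02 log2 CPM in spleen cells and at 6.46, 6.64 and 6.42 in LSK cells (log2 FC 4.14 ± 0.63, edgeR adjusted p = 0.000310), and Cybb at 9.54, 9.37 and 10.52 log2 CPM in spleen cells and at 5.37, 7.21 and 6.67 in LSK cells (log2 FC 3.31 ± 0.45, edgeR adjusted p = 0.000126). Ncf1 and Ncf4, cytosolic subunits, and the GTPase Rac2 rose by 2.33, 2.44 and 1.52 log2 units. No spleen library overlapped with an LSK library for any of the 7. Rac1, which most cells express, did not pass (log2 FC 0.86 ± 0.35, edgeR adjusted p = 0.0814).

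Of 31 inflammatory cytokine and chemokine genes tested, 20 were higher in spleen cells and none lower, with a median of 3.14. Il1b (ENSMUSG00000027398, chromosome 2, 129364570 to 129371139), interleukin-1 beta, stood at 9.58, 9.61 and 8.20 log2 CPM in spleen cells and at 1.26, 2.96 and 1.80 in LSK cells (log2 FC 7.08 ± 1.03, edgeR adjusted p = 0.000217). Its antagonist Il1rn stood at 6.43, 5.77 and 4.78 log2 CPM in spleen cells and at -1.43, -0.38 and -0.73 in LSK cells (log2 FC 6.66 ± 0.86, edgeR adjusted p = 8.89e-05). Both were more than 5 log2 units higher in every spleen library than in any LSK library. Cxcl2, a chemokine that attracts neutrophils, stood at 8.75, 5.76 and 8.69 log2 CPM in spleen cells and at -0.70, -0.24 and -2.71 in LSK cells (log2 FC 9.19 ± 1.53, edgeR adjusted p = 0.000587), with spleen 815 below the other 2. Without animal 540 there were 11 called higher.

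The letters GGGA, any 1 base and TTTCC, a form of the NF-kB site, were found in a row on either strand within 250 bases before the start of 5 of 23 matched cytokine promoters (21.7%) and of 0.345% of all promoters. They occurred in Cxcl1, Cxcl2, Cxcl3, Il6 and Csf1. The promoters of the 3 neighbouring chemokine genes Cxcl1 (chr5:90891121-90891240, plus strand), Cxcl2 (chr5:90903751-90903870, plus strand) and Cxcl3 (chr5:90785981-90786100, plus strand) are shown because the site has the same letters in each, in capitals. These stretches end 4, 28 and 0 bases before the start.
Cxcl1: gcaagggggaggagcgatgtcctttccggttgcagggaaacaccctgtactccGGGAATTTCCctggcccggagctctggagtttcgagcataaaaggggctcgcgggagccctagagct
Cxcl2: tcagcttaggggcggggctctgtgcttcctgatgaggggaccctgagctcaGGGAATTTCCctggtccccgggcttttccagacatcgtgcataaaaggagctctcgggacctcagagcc
Cxcl3: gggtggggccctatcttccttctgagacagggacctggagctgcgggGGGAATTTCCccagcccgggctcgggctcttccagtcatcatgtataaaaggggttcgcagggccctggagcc
Of these, Cxcl1, Cxcl3, Il6 and Csf1 were named for this match after their values were seen. Cxcl3 stood at 1.73, -1.61 and 1.51 log2 CPM in spleen cells and at -3.99, -3.06 and -3.67 in LSK cells (log2 FC 5.12 ± 1.18, edgeR adjusted p = 0.00545). Its call was lost in a fit with the animal as a replicate block. Cxcl1 was at -0.01, -2.02 and 2.27 log2 CPM in spleen cells (log2 FC 7.05 ± 2.19, edgeR adjusted p = 0.0265), and its call was lost without LSK 540, LSK 815, LSK 768 or spleen 640 (highest adjusted p = 0.0943). Il6 (log2 FC 0.04 ± 0.98, edgeR adjusted p = 0.981) and Csf1 (log2 FC -0.17 ± 0.70, edgeR adjusted p = 0.877) overlapped between the populations.

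Of the 16 genes for NF-kB subunits and their feedback inhibitors, 12 were higher and none lower (median 1.81). Relb, a subunit of the noncanonical pathway, stood at 7.62, 7.90 and 5.60 log2 CPM in spleen cells and at 2.69, 3.25 and 2.90 in LSK cells (log2 FC 4.37 ± 0.54, edgeR adjusted p = 6.45e-05). Nfkbia, the inhibitor that NF-kB itself induces, stood at 9.10, 9.16 and 8.91 log2 CPM in spleen cells and at 5.80, 5.92 and 5.24 in LSK cells (log2 FC 3.38 ± 0.73, edgeR adjusted p = 0.00374) and was even across the spleen libraries. Nfkbiz and Bcl3, atypical IkB proteins, rose by 3.67 and 3.12, and the call of Nfkbiz was lost with the replicate block. With the animal as a replicate block, or with scaling by size alone, 7 were called higher, and without animal 540 there were 5. Immediate-early genes, which are switched on within minutes by signals and by cell handling, were higher for 15 of 22 and lower for 1 (median 2.27). Atf3, a stress-induced factor, stood at 8.58, 8.71 and 8.58 log2 CPM in spleen cells and at 2.59, 5.17 and 1.0 in LSK cells (log2 FC 4.75 ± 1.06, edgeR adjusted p = 0.00449), with the LSK libraries far apart. Klf2 stood at 10.73, 11.23 and 10.11 log2 CPM in spleen cells and at 6.25, 6.93 and 4.69 in LSK cells (log2 FC 4.54 ± 0.70, edgeR adjusted p = 0.000330). Without animal 540 there were 8 called higher. The part of the different isolation of the cells in these levels was not tested.

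Myc was the immediate-early gene that was lower. It stood at 8.14, 8.41 and 8.42 log2 CPM in LSK cells and at 5.32, 4.72 and 6.18 in spleen cells (log2 FC -2.80 ± 0.47, edgeR adjusted p = 0.000614), and every LSK library exceeded every spleen library.

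Growth factor receptors divided between the populations, with 8 of 31 higher and 5 lower (median 1.02). Csf1r, the receptor of macrophage colony-stimulating factor, stood at 9.93, 9.57 and 10.14 log2 CPM in spleen cells and at 5.25, 7.71 and 7.23 in LSK cells (log2 FC 2.85 ± 0.65, edgeR adjusted p = 0.00539). LSK 815 and 768 were higher than LSK 540, and all were below the spleen libraries. Besides Kit and Tek, the signalling receptor Il1r1 was lower, at 0.53, -0.87 and 2.89 log2 CPM in spleen cells and 4.36, 4.58 and 4.29 in LSK cells (log2 FC -2.77 ± 0.75, edgeR adjusted p = 0.0132), whereas its decoy Il1r2 was higher as given above. For Il1r1, its call was lost without spleen 540 (highest adjusted p = 0.0585). Without animal 540 there were 4 called higher and 3 lower, and with scaling by size alone 5 and 9.

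Of 31 homing and adhesion genes, 10 were higher and 4 lower, with a median of 0.59. Sirpa, the receptor for the signal against phagocytosis, stood at 9.89, 10.59 and 9.84 log2 CPM in spleen cells and at 6.16, 6.96 and 6.70 in LSK cells (log2 FC 3.51 ± 0.43, edgeR adjusted p = 6.11e-05). Selp, which encodes P-selectin, stood at 5.15, 6.28 and 5.94 log2 CPM in LSK cells and at 1.35, -0.08 and 2.26 in spleen cells (log2 FC -4.41 ± 0.70, edgeR adjusted p = 0.000419). Cxcr4, the receptor for the niche chemokine CXCL12, stood at 8.22, 7.65 and 7.54 log2 CPM in spleen cells and at 6.76, 6.75 and 6.67 in LSK cells (log2 FC 1.11 ± 0.41, edgeR adjusted p = 0.0543), and Itga4, the VLA-4 chain, at 5.77, 6.80 and 7.18 log2 CPM in spleen cells and at 7.40, 7.49 and 7.73 in LSK cells (log2 FC -0.85 ± 0.32, edgeR adjusted p = 0.0621). Neither of these 2 passed the test, although the groups did not overlap.

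**Figure D3:**
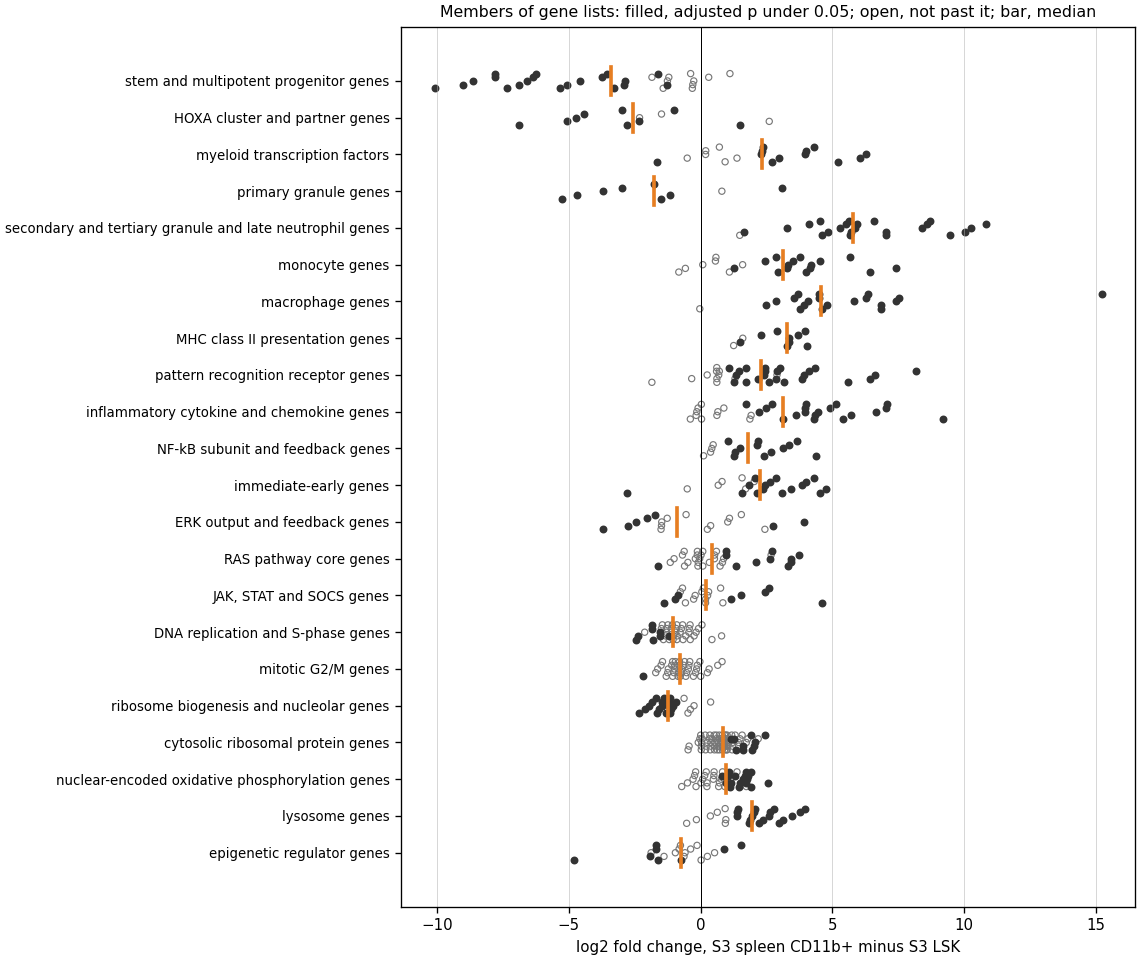
Log2 fold change of S3 spleen CD11b+ over S3 LSK cells for the members of 22 gene lists, with filled points for genes past an adjusted p of 0.05 in edgeR, open points for the others, and a bar at the median of the list. The late neutrophil list lies farthest to the right with its median at 5.79, and the stem and progenitor list farthest to the left at -3.41. The outermost macrophage gene is Marco, whose plotted value depends on the prior count because LSK cells held 0 counts.

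BCL-2 family genes were described one by one. The anti-apoptotic members inhibit mitochondrial apoptosis. Bcl2 (ENSMUSG00000057329, chromosome 1, 106538178 to 106714274) was the member that was lower in spleen cells, at 6.27, 6.39 and 6.52 log2 CPM in LSK cells and at 4.75, 4.81 and 3.69 in spleen cells (log2 FC -1.90 ± 0.38, edgeR adjusted p = 0.00220), 3.73-fold. All 3 spleen libraries were below all LSK libraries. Mcl1 (ENSMUSG00000038612, chromosome 3, 95658788 to 95663176) stood at 9.67, 9.96 and 9.27 log2 CPM in spleen cells and at 7.42, 7.96 and 7.20 in LSK cells (log2 FC 2.10 ± 0.40, edgeR adjusted p = 0.00162), 4.28-fold higher. The ranges were separate and the spleen libraries close together. Bcl2l1 (ENSMUSG00000007659, chromosome 2, 152780668 to 152831728), which encodes BCL-XL, stood at 6.32, 6.14 and 7.53 log2 CPM in spleen cells and at 4.77, 4.89 and 4.53 in LSK cells (log2 FC 2.06 ± 0.56, edgeR adjusted p = 0.0131), 4.18-fold higher. It was highest in spleen 640, and its call was lost without LSK 540 or LSK 768 (highest adjusted p = 0.0584). With the animal as a replicate block its adjusted p was 0.0637.

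The A1 genes Bcl2a1a, Bcl2a1b and Bcl2a1d showed the largest differences of the family. They are near-identical copies, so reads could be divided between them and each value is uncertain. Bcl2a1d stood at 7.22, 8.39 and 5.40 log2 CPM in spleen cells and at 0.97, 2.08 and 1.5 in LSK cells (log2 FC 5.88 ± 0.79, edgeR adjusted p = 0.000119), and Bcl2a1a and Bcl2a1b had log2 FCs of 6.48 and 7.14. Spleen 640 was the lowest spleen library for all 3. Bcl2l2, which encodes BCL-W, stood at 3.33, 2.43 and 3.73 log2 CPM in spleen cells and at 3.63, 3.97 and 4.21 in LSK cells (log2 FC -0.70 ± 0.50, edgeR adjusted p = 0.311) and overlapped. In all, 5 of the 7 anti-apoptotic genes were higher, 3 of them the A1 copies, and 1 was lower.

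BH3-only genes, whose products promote apoptosis by binding the former group, were higher for 5 of 7 tested and lower for none (median 1.24). Hrk, the eighth, was too low to be tested. Pmaip1, which encodes NOXA, stood at 7.85, 9.34 and 6.61 log2 CPM in spleen cells and at 2.73, 3.97 and 3.26 in LSK cells (log2 FC 4.94 ± 0.80, edgeR adjusted p = 0.000496). Bbc3, which encodes PUMA, stood at 5.47, 5.39 and 5.40 log2 CPM in spleen cells and at 2.93, 3.77 and 2.86 in LSK cells (log2 FC 2.18 ± 0.42, edgeR adjusted p = 0.00177). For both genes every spleen library exceeded every LSK library. Bcl2l11, which encodes BIM, stood at 5.02, 4.78 and 5.65 log2 CPM in spleen cells and at 3.90, 4.01 and 3.97 in LSK cells (log2 FC 1.24 ± 0.39, edgeR adjusted p = 0.0266), and its call was lost without LSK 540, LSK 815, LSK 768 or spleen 640 (highest adjusted p = 0.0855). Bmf stood at 4.63, 5.02 and 3.96 log2 CPM in spleen cells and at 2.11, 3.83 and 2.65 in LSK cells (log2 FC 1.56 ± 0.45, edgeR adjusted p = 0.0192), and its call was lost without LSK 540, LSK 768 or spleen 815 (highest adjusted p = 0.0902). With the replicate block the adjusted p was 0.131 for Bcl2l11 and 0.0660 for Bmf, which left 3 BH3-only genes called higher. Bad stood at 5.37, 5.12 and 4.51 log2 CPM in spleen cells and at 4.13, 4.10 and 4.0 in LSK cells (log2 FC 0.96 ± 0.27, edgeR adjusted p = 0.0171), and its call was lost without LSK 540, LSK 815, LSK 768 or spleen 540 (highest adjusted p = 0.0840). Bid (log2 FC -0.39 ± 0.32, edgeR adjusted p = 0.372) and Bik (log2 FC -0.06 ± 0.87, edgeR adjusted p = 0.966) did not pass. Of the 7, 2 were called higher without LSK 540, without LSK 768, when libraries were scaled by size alone and without animal 540, and 3 without LSK 815. Scaling by size alone also called 1 of them lower.

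Of the effectors that permeabilize mitochondria, Bax stood at 7.11, 7.41 and 6.37 log2 CPM in spleen cells and at 5.44, 5.37 and 5.36 in LSK cells (log2 FC 1.63 ± 0.26, edgeR adjusted p = 0.000460) with nearly equal levels in the 3 LSK libraries. Bak1 stood at 6.89, 7.04 and 6.26 log2 CPM in spleen cells and at 5.89, 5.98 and 6.08 in LSK cells (log2 FC 0.78 ± 0.30, edgeR adjusted p = 0.0605) and passed with the replicate block (adjusted p = 0.0321). Bok stood at -1.36, 0.32 and -3.20 log2 CPM in spleen cells and at 1.59, 1.34 and 0.67 in LSK cells (log2 FC -2.09 ± 0.85, edgeR adjusted p = 0.0765), lower in every spleen library, and passed with the block as well (adjusted p = 0.0435). Both anti-apoptotic and pro-apoptotic members were among the genes that were higher in spleen cells.

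**Figure D4:**
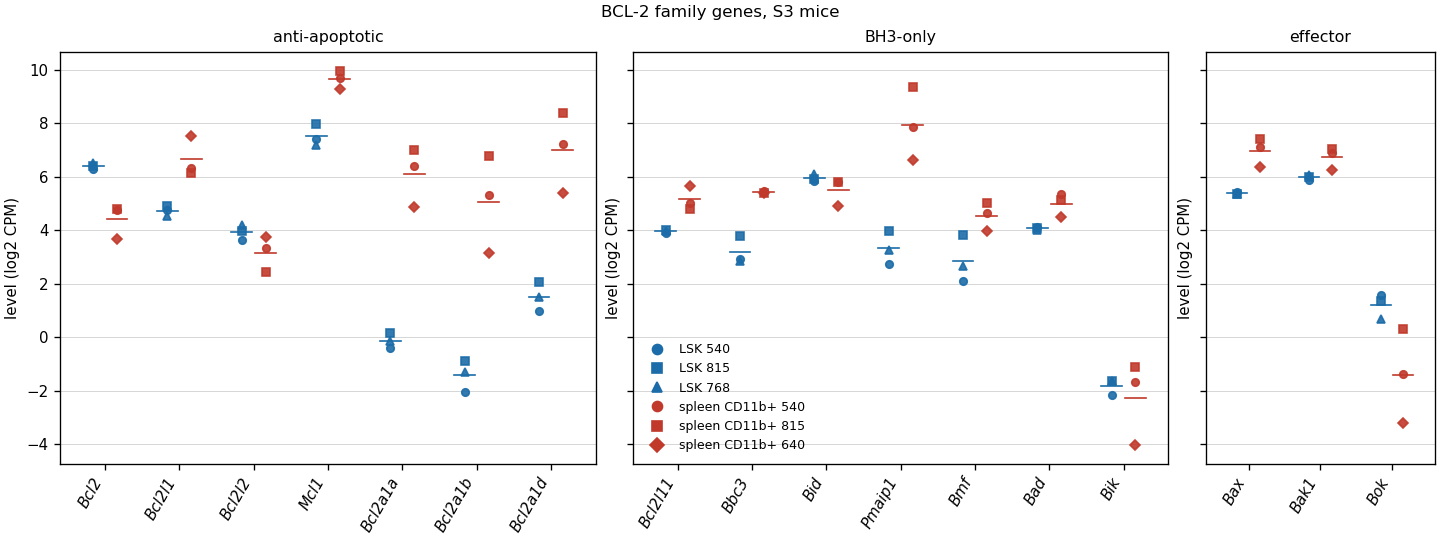
Levels of anti-apoptotic, BH3-only and effector genes of the BCL-2 family in log2 CPM, with 1 symbol per library (blue, S3 LSK cells; red, S3 spleen CD11b+ cells; the shape gives the animal) and a bar at each group mean. Bcl2 lies lower, and Mcl1, Bcl2l1, the A1 genes, Pmaip1, Bbc3 and Bax lie higher, in every spleen library than in every LSK library.

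Of 27 genes for caspases, the apoptosome and inhibitors of apoptosis, 8 were higher and 3 lower (median 0.13). Casp1, the inflammatory caspase, stood at 6.53, 6.77 and 5.23 log2 CPM in spleen cells and at 4.63, 5.15 and 5.17 in LSK cells (log2 FC 1.32 ± 0.32, edgeR adjusted p = 0.00712), with spleen 640 level with LSK cells. Birc3, an inhibitor of apoptosis that NF-kB induces, stood at 6.73, 6.90 and 6.49 log2 CPM in spleen cells and at 4.55, 5.12 and 4.97 in LSK cells (log2 FC 1.82 ± 0.38, edgeR adjusted p = 0.00270). Mlkl, which executes necroptosis, stood at 5.15, 5.32 and 5.56 log2 CPM in LSK cells and at 3.81, 3.70 and 3.94 in spleen cells (log2 FC -1.53 ± 0.26, edgeR adjusted p = 0.000661), and Casp12 fell by 3.77 on the log2 scale. Without LSK 540, spleen 540 or spleen 815, 5 of the list were called higher. Casp2 (log2 FC -1.68 ± 0.51, edgeR adjusted p = 0.0229) was the third that was lower, and its call was lost without LSK 540, LSK 768, spleen 540 or spleen 815 (highest adjusted p = 0.0932). Leaving out animal 540 left 2 called higher and 1 lower, and with scaling by size alone 2 were higher and 5 lower, with a median of -0.49.

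Ptpn11 (ENSMUSG00000043733, chromosome 5, 121130533 to 121191397), the gene that carries the D61Y substitution in these mice, stood at 7.26, 7.13 and 7.25 log2 CPM in LSK cells and at 6.52, 5.90 and 7.13 in spleen cells (log2 FC -0.61 ± 0.47, edgeR adjusted p = 0.351). Spleen 640 reached the level of the LSK libraries, and spleen 540 and 815 were below all of them. In a fit with the animal as a replicate block it was lower by -1.10 (adjusted p = 0.0407) in edgeR. That fit relies on the label of animal 540, and LSK 768, alone in its block, adds nothing to the comparison there. The counts do not tell the mutant from the normal allele.

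Of 34 RAS pathway core genes, 10 were higher and 1 was lower (median 0.43). Rasgrp4 and Rasgrp1 are exchange factors that load RAS with GTP. Rasgrp4 stood at 7.87, 7.26 and 7.36 log2 CPM in spleen cells and at 2.84, 4.52 and 3.52 in LSK cells (log2 FC 3.74 ± 0.55, edgeR adjusted p = 0.000229), and Rasgrp1 at 5.32, 5.50 and 4.89 log2 CPM in spleen cells and at 0.21, 2.13 and 2.39 in LSK cells (log2 FC 3.42 ± 0.74, edgeR adjusted p = 0.00364). Rras2 stood at 5.41, 6.36 and 0.35 log2 CPM in spleen cells and at 2.02, 2.18 and 1.66 in LSK cells (log2 FC 3.43 ± 0.90, edgeR adjusted p = 0.0114), with spleen 640 below every LSK library, and its call was lost without LSK 768 or spleen 815 (highest adjusted p = 0.0584). The RAS GTPase activator Rasal3 was lower (log2 FC -1.60 ± 0.49, edgeR adjusted p = 0.0236), and its call was lost without LSK 815, spleen 815 or spleen 640 (highest adjusted p = 0.0777). In the blocked fit 4 genes of the list were called lower.

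Genes listed for ERK output and feedback did not share a direction, with 5 of 18 lower (8 in DESeq2), 2 higher and a median of -0.91. The list also holds the receptor Il1r1, given above, which is among the 5. Spry1 and Spry2, feedback inhibitors of receptor signalling, fell by 2.46 and 1.73 on the log2 scale. Spry2 stood at 3.61, 3.80 and 3.39 log2 CPM in LSK cells and at 2.2, 1.68 and 1.73 in spleen cells (log2 FC -1.73 ± 0.39, edgeR adjusted p = 0.00469), with no overlap. Etv4 was lower too (log2 FC -3.68 ± 1.25, edgeR adjusted p = 0.0409), and its call was lost without any 1 of the 6 libraries (highest adjusted p = 0.124). Phlda1 stood at 3.21, 2.78 and 3.18 log2 CPM in spleen cells and at -0.25, -0.71 and -1.80 in LSK cells (log2 FC 3.91 ± 0.63, edgeR adjusted p = 0.000463), and Dusp5, a nuclear ERK phosphatase, at 6.37, 7.92 and 4.92 log2 CPM in spleen cells and at 3.67, 4.64 and 3.91 in LSK cells (log2 FC 2.75 ± 0.71, edgeR adjusted p = 0.0102), and its call was lost without LSK 540 or spleen 815 (highest adjusted p = 0.0766). Between 2 and 3 of the list were called lower without LSK 540, 815 or 768 or spleen 540 or 815, and 1 without animal 540.

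JAK, STAT and SOCS genes were higher for 5 of 21 and lower for 3 (median 0.19). Socs3, the feedback inhibitor of cytokine receptors, stood at 7.39, 6.76 and 8.72 log2 CPM in spleen cells and at 2.82, 4.0 and 2.56 in LSK cells (log2 FC 4.59 ± 1.07, edgeR adjusted p = 0.00572). Stat3 stood at 8.25, 8.50 and 8.17 log2 CPM in spleen cells and at 6.97, 7.35 and 7.07 in LSK cells (log2 FC 1.17 ± 0.28, edgeR adjusted p = 0.00635), and Stat5a at 5.47, 5.22 and 5.73 log2 CPM in spleen cells and at 7.04, 6.69 and 6.92 in LSK cells (log2 FC -1.40 ± 0.31, edgeR adjusted p = 0.00431). These neighbouring genes overlap on opposite strands, and although the kit keeps strand, its use in the counting was not given in the sources used here, so both values are uncertain. Without any 1 LSK library or spleen 815, 2 or 3 were called higher. With scaling by size alone 1 was called higher and the median was -0.47, and none of the list was called without animal 540 in edgeR.

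Among cell cycle genes the number that passed depended on spleen 640. Of 42 DNA replication and S-phase genes, 8 were lower and none higher (median -1.03), and 27 were below LSK cells in every spleen library, as were 29.1% of all genes. Without spleen 640 there were 24 called lower, and without animal 540 there were 0. Without any other single library of the 6 between 4 and 5 were called lower, with scaling by size alone 21 and in DESeq2 15. Exo1, an exonuclease of repair and replication, stood at 5.52, 5.21 and 5.29 log2 CPM in LSK cells and at 2.03, 1.78 and 3.87 in spleen cells (log2 FC -2.46 ± 0.59, edgeR adjusted p = 0.00719). Hells and Pola1, a chromatin remodeller and the catalytic subunit of DNA polymerase alpha, fell by 2.38 and 1.85 on the log2 scale. In each of these, spleen 640 was the spleen library nearest to LSK cells. Of 40 mitotic genes, 1 was lower, Kif20b (log2 FC -2.18 ± 0.73, edgeR adjusted p = 0.0373), and without spleen 640 there were 12. Without any other single library, or without animal 540, there were 0 in edgeR (highest adjusted p of Kif20b = 0.128 without 1 library), and in DESeq2 there were 2. Mki67, the proliferation marker, stood at 8.70, 8.66 and 8.88 log2 CPM in LSK cells and at 7.14, 6.70 and 10.01 in spleen cells (log2 FC -0.02 ± 0.79, edgeR adjusted p = 0.986). Spleen 540 and 815 were below all LSK libraries and spleen 640 above all of them.

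Cyclins, CDKs and their inhibitors were divided, with 6 of 21 higher and 6 lower. Cdk6, which is known to be high in multipotent progenitors, stood at 8.46, 8.46 and 8.76 log2 CPM in LSK cells and at 4.44, 3.87 and 5.52 in spleen cells (log2 FC -3.79 ± 0.57, edgeR adjusted p = 0.000304). Cdk4 stood at 8.47, 8.34 and 8.34 log2 CPM in LSK cells and at 6.82, 6.57 and 6.62 in spleen cells (log2 FC -1.71 ± 0.29, edgeR adjusted p = 0.000617), and the spleen libraries were close to each other. Of the inhibitors, Cdkn2a stood at 6.16, 5.95 and 1.95 log2 CPM in spleen cells and at -1.48, -0.90 and -2.04 in LSK cells (log2 FC 7.02 ± 1.08, edgeR adjusted p = 0.000343) and was much lower in spleen 640 than in the other spleen libraries. Cdkn1a, which encodes p21, was 5.83, 5.85 and 5.82 log2 CPM in spleen cells (log2 FC 1.57 ± 0.41, edgeR adjusted p = 0.0113), and its call was lost without LSK 540 or LSK 768 (highest adjusted p = 0.0528). Its adjusted p with the block was 0.0794. With animal 540 left out, 2 were called higher.

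Genes of ribosome assembly were lower as well. Of 24 ribosome biogenesis and nucleolar genes, 18 were lower in spleen cells and none higher (median -1.22). Polr1b, a subunit of RNA polymerase I, stood at 6.58, 6.38 and 6.40 log2 CPM in LSK cells and at 3.71, 3.11 and 4.94 in spleen cells (log2 FC -2.33 ± 0.53, edgeR adjusted p = 0.00497). Dkc1, dyskerin, stood at 7.35, 7.09 and 7.20 log2 CPM in LSK cells and at 4.70, 4.37 and 5.87 in spleen cells (log2 FC -2.09 ± 0.44, edgeR adjusted p = 0.00291). Spleen 640 was highest among the spleen libraries in both and remained below LSK cells. With animal 540 left out, 2 were called lower. Of 21 tRNA synthetase genes, 4 were lower, led by Iars and Eprs (log2 FCs -1.95 and -1.45). Of the 21, 13 were called lower when libraries were scaled by size alone and 10 in DESeq2. Without any 1 library other than spleen 640, 1 or 2 passed, and without animal 540 there were 0.

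Of 75 ribosomal protein genes, 10 were higher, a share below the 15.8% of all genes, and none lower (median 0.85). Rps29 stood at 11.14, 12.19 and 9.29 log2 CPM in spleen cells and at 9.46, 9.30 and 9.20 in LSK cells (log2 FC 1.97 ± 0.57, edgeR adjusted p = 0.0196). Spleen 815 was the highest library and spleen 640 was level with LSK cells, a pattern that Rpl37a, Rps9 and Rplp1 shared. Without spleen 640, 52 were called higher, with the replicate block 36 and without spleen 540 there were 3. Without LSK 540, 815 or 768, without spleen 815, without animal 540 or with scaling by size alone, there were 0. Of 42 nuclear-encoded genes of oxidative phosphorylation, 18 were higher and none lower (median 0.95). Cox4i1, a subunit of cytochrome c oxidase, stood at 9.12, 10.08 and 7.79 log2 CPM in spleen cells and at 7.47, 7.30 and 7.30 in LSK cells (log2 FC 1.91 ± 0.52, edgeR adjusted p = 0.0143), and its call was lost without LSK 540, LSK 815, LSK 768 or spleen 815 (highest adjusted p = 0.0948). Without LSK 540, 815 or 768 there were 2, 3 and 3 called higher, without spleen 540 or 815 there were 7 and 1, without animal 540 there was 1, and with scaling by size alone there were 5.

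Lysosome genes were higher for 18 of 25 and lower for none, with a median of 1.96. Ctsb, cathepsin B, stood at 11.43, 11.22 and 11.19 log2 CPM in spleen cells and at 7.64, 7.96 and 7.82 in LSK cells (log2 FC 3.47 ± 0.57, edgeR adjusted p = 0.000551), and Ctsd, cathepsin D, at 11.48, 11.31 and 11.10 log2 CPM in spleen cells and at 8.35, 8.07 and 8.04 in LSK cells (log2 FC 3.15 ± 0.59, edgeR adjusted p = 0.00149). The spleen libraries of both genes lay within 0.40 log2 units of each other. Of 20 glycolysis genes 3 were higher, a share near the 15.8% of all genes, and 5 without spleen 815 or in DESeq2. Slc16a3, the lactate exporter MCT4, stood at 7.97, 7.06 and 7.48 log2 CPM in spleen cells and at 3.53, 4.13 and 3.92 in LSK cells (log2 FC 3.68 ± 0.53, edgeR adjusted p = 0.000201), and the regulator Pfkfb4 and the glucose transporter Slc2a3 rose by 2.47 and 1.75. The call of Slc2a3 was lost with the replicate block.

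Of 20 epigenetic regulator genes, 6 were lower and 2 higher (median -0.75). Dnmt3b, a de novo DNA methyltransferase, stood at 6.31, 6.08 and 5.85 log2 CPM in LSK cells and at 1.03, 0.84 and 1.81 in spleen cells (log2 FC -4.81 ± 0.81, edgeR adjusted p = 0.000665). The isocitrate dehydrogenases moved in opposite directions. Idh1, the cytosolic enzyme, stood at 6.97, 7.12 and 6.43 log2 CPM in spleen cells and at 5.02, 5.38 and 5.55 in LSK cells (log2 FC 1.54 ± 0.34, edgeR adjusted p = 0.00436), and Idh2, the mitochondrial one, at 6.04, 6.09 and 4.78 log2 CPM in spleen cells and at 7.69, 7.64 and 7.64 in LSK cells (log2 FC -1.91 ± 0.31, edgeR adjusted p = 0.000536). Neither overlapped between the populations. Without spleen 815 there were 3 called lower, without spleen 640 there were 11 and without animal 540 there were 2.

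Interferon-stimulated genes were higher for 6 of 24 and lower for none (median 1.11). Isg15 stood at 7.33, 8.28 and 5.91 log2 CPM in spleen cells and at 2.88, 3.35 and 5.28 in LSK cells (log2 FC 3.24 ± 0.92, edgeR adjusted p = 0.0171), and Ifit3 at 6.14, 7.48 and 3.55 log2 CPM in spleen cells and at 0.80, 1.91 and 4.23 in LSK cells (log2 FC 3.43 ± 1.07, edgeR adjusted p = 0.0264). LSK 768 was the highest LSK library of both genes, and spleen 815 the highest spleen library. Spleen 640 lay below LSK 768 for Ifit3. The median was 0.61 without spleen 815 and 1.88 without LSK 768. In the blocked fit, to which LSK 768 adds nothing, it was 2.48 and 19 were called higher. Without LSK 540, LSK 815, spleen 815 or animal 540 there were 0.

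Transcripts of other cell types were present in both populations. Globin transcripts took 1.21%, 1.27% and 2.57% of the counts of the spleen libraries and at most 0.00700% of those of an LSK library. Hbb-bs (ENSMUSG00000052305, chromosome 7, 103826534 to 103828096), an adult beta-globin, stood at 12.54, 12.12 and 13.42 log2 CPM in spleen cells and at 4.47, 3.17 and 3.62 in LSK cells (log2 FC 8.94 ± 0.94, edgeR adjusted p = 2.39e-05). Hba-a1, Hba-a2 and Hbb-bt rose by 9.06, 10.04 and 7.82, and reads can be divided between these near-identical copies. The embryonic globins Hbb-bh1, Hbb-y and Hba-x held at most 31 counts in any of the 6 libraries, and the call of Hba-x was lost without any 1 of them. Of 21 erythroid membrane and regulator genes, 4 were higher (8 in DESeq2), beside 15.8% of all genes, and the median of 2.34 became -0.24 without spleen 640. Slc4a1, the band 3 anion exchanger, stood at 7.15, 6.31 and 11.67 log2 CPM in spleen cells and at 3.01, 3.06 and 2.94 in LSK cells (log2 FC 7.19 ± 1.66, edgeR adjusted p = 0.00562), and Alas2, the erythroid enzyme that begins heme synthesis, at 7.92, 6.49 and 10.02 log2 CPM in spleen cells and at 1.41, 0.51 and 0.74 in LSK cells (log2 FC 7.91 ± 1.22, edgeR adjusted p = 0.000342). The summed level of the erythroid list was 10173 CPM in spleen 640 and 1118 and 581 CPM in spleen 540 and 815, against 1575, 758 and 1044 CPM in LSK cells, where Car2 was the most abundant member. With the replicate block none of the list was called higher, and Slc4a1 had an adjusted p of 0.115. Of 10 heme synthesis genes 3 were higher, and 1 without spleen 640, any 1 LSK library or animal 540. The erythroid list had 2 called higher without LSK 815, LSK 768, spleen 640 or animal 540.

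B cell genes were higher for 8 of 12 and lower for 1. Ms4a1, which encodes CD20, stood at 5.83, 5.53 and 0.17 log2 CPM in spleen cells and at 1.52, -0.13 and -1.17 in LSK cells (log2 FC 4.65 ± 1.05, edgeR adjusted p = 0.00467). Spleen 540 and 815 were far above LSK cells and spleen 640 was level with them. Ighm was lower instead, at 11.56, 10.52 and 9.42 against 13.37, 13.12 and 11.67 log2 CPM in LSK cells (log2 FC -2.14 ± 0.71, edgeR adjusted p = 0.0366), and its call was lost without LSK 540, LSK 815, spleen 815 or spleen 640 (highest adjusted p = 0.113). It made up most of the summed level of the list, which was 4347, 2598 and 804 CPM in spleen cells and 10700, 8977 and 3320 CPM in LSK cells. Without spleen 540 there were 5 called higher, and without animal 540 there were 4.

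T cell genes summed to 96.3, 118 and 22.5 CPM in the spleen libraries and to 64.2, 51.9 and 53.3 CPM in the LSK libraries, with 4 of 14 higher (7 in DESeq2) and 1 lower. Without spleen 640 there were 8 called higher, and without any 1 LSK library 2, and without animal 540 there was 1. Cd4, which macrophages and dendritic cells of some kinds also express, rose by 4.33, whereas Cd3e stood at 0.71, 1.25 and 0.14 log2 CPM in spleen cells and at -2.53, -2.23 and -2.78 in LSK cells (log2 FC 3.46 ± 1.25, edgeR adjusted p = 0.0507). Of 10 NK cell genes 1 was lower, Nkg7 (log2 FC -3.32 ± 0.54, edgeR adjusted p = 0.000496), and none higher. Klrk1 was their most abundant member in spleen 540 and 815, and Nkg7 in spleen 640 and in each LSK library. The groups overlapped for 8 of the 10. The defining marker Ncr1 was at -1.90, 0.15 and -0.91 log2 CPM in spleen cells and -0.28, 1.36 and 3.24 in LSK cells.

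Genes of eosinophils, basophils and mast cells were lower for 7 of 14 and higher for 1, with a median of -3.00. Cpa3, a mast cell and basophil protease, stood at 7.16, 5.84 and 6.53 log2 CPM in LSK cells and at 1.85, 1.74 and 0.48 in spleen cells (log2 FC -5.15 ± 0.83, edgeR adjusted p = 0.000466), and Prss34 at 9.25, 8.46 and 8.59 log2 CPM in LSK cells and at 5.90, 5.92 and 2.80 in spleen cells (log2 FC -3.40 ± 0.90, edgeR adjusted p = 0.0115). Ccr3, the eotaxin receptor of eosinophils, was the one that was higher (log2 FC 5.36 ± 1.05, edgeR adjusted p = 0.00194). Without LSK 540 or spleen 540 there were 3 called lower, and without both there was 1. Of 16 megakaryocyte and platelet genes, 6 were lower (10 in DESeq2) and 2 higher (median -2.30). Itga2b, which encodes CD41, stood at 7.94, 7.54 and 7.92 log2 CPM in LSK cells and at 3.74, 3.61 and 5.65 in spleen cells (log2 FC -3.15 ± 0.54, edgeR adjusted p = 0.000721). Clec1b (log2 FC 3.73 ± 1.10, edgeR adjusted p = 0.0202) and Thbs1 (log2 FC 2.86 ± 0.78, edgeR adjusted p = 0.0137), which myeloid cells also express, were higher. Of these, the call of Clec1b was lost without LSK 540, LSK 815 or spleen 815 (highest adjusted p = 0.0839), and that of Thbs1 without LSK 540 or spleen 540 (highest adjusted p = 0.0588), and neither was called without animal 540. Of 12 stroma and endothelial genes 2 were lower, with summed levels of 14.9, 16.6 and 18.0 CPM in spleen cells and 43.8, 45.3 and 48.1 CPM in LSK cells. The part of these other cells in the differences given above was not tested.

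**Figure D5:**
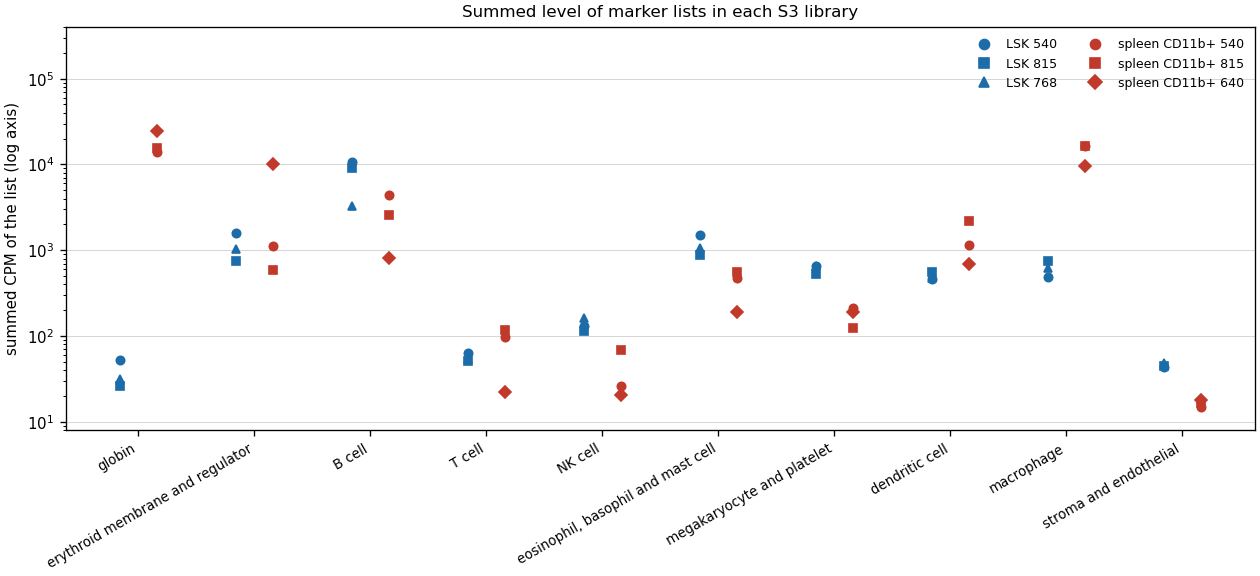
Summed level of 10 marker lists in CPM on a log axis, with 1 symbol per S3 library (blue, LSK cells; red, spleen CD11b+ cells; the shape gives the animal). Globin and macrophage genes lie higher in every spleen library, the erythroid membrane and regulator list lies highest in spleen 640 at 10173 CPM, and the B cell list lies lowest in spleen 640 at 804 CPM.

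Whether the difference between the cell types itself differed from that in MxCre mice was tested in the same fit. In edgeR 1 of 19555 genes (0.00511%) passed, Hbb-bs, whose difference between the log2 FCs was 8.86 ± 1.25 (adjusted p = 0.0469), from 8.94 in S3 mice and 0.08 in MxCre mice. At an unadjusted p under 0.05 there were 2614 genes, and by other tools 50 passed the adjusted threshold in limma-voom and 827 in DESeq2. No gene passed with the replicate block in edgeR, where 1763 had an unadjusted p under 0.05, and the call of Hbb-bs was also lost without any 1 S3 LSK library or spleen 540. The differences for the other genes named here did not pass in edgeR, which does not show that they were equal. For comparison, the log2 FCs in MxCre mice were -4.08 for Mpo, 5.83 for S100a9, 4.11 for Mmp9, 2.90 for Mcl1, 2.06 for Bcl2l1, -1.20 for Bcl2 and -2.10 for Ptpn11. The median of the erythroid membrane and regulator genes was -3.43 in MxCre mice and that of B cell genes 0.17. Those of macrophage genes and MHC class II genes were 4.54 and 3.35, beside 4.56 and 3.27 in S3 mice.

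BM CD11b+ cells of S3 mice share the organ with LSK cells and the marker with spleen CD11b+ cells, and were set beside both. Between spleen and BM CD11b+ cells 11 of 19555 genes passed (0.0563%), 6 lower in spleen (0.0307%) and 5 higher (0.0256%). The BM libraries of animals 540, 815 and 640 had Mpo at 10.43, 10.46 and 10.43 log2 CPM, so that its difference from spleen was -4.04 ± 0.59 (edgeR adjusted p = 0.0269), and Prtn3 differed by -3.72 ± 0.63 (adjusted p = 0.0443). BM CD11b+ cells lay nearer to LSK cells than to spleen cells for both genes. Hoxa9 stood at 0.35, 1.46 and 2.19 log2 CPM there, and spleen minus BM was -3.35 ± 0.51 log2 units (edgeR adjusted p = 0.0300). Ctsk, Dio2 and Igfbp4 were the others that were lower. Higher in spleen were Pla2g2d and Dnase1l3, which encodes a secreted DNase of macrophages and dendritic cells, with log2 FCs of 7.83 and 6.83, and Procr, Ccnd1 and Arhgap6. For Marco, the BM libraries held 10, 0 and 65 counts beside 3116, 6072 and 1534 in spleen. The medians over lists, spleen minus BM, were 1.75 for macrophage genes and 2.33 for MHC class II genes, of which none passed in edgeR, -2.59 for primary granule genes, -0.45 for late neutrophil genes and 0.16 for anti-apoptotic BCL-2 genes. In animal 640 the summed MHC class II level was lower in spleen (5278 CPM) than in BM (6845 CPM). The 11 calls between spleen and BM became 1 with the block. They became 3 without BM 540 and 0 without spleen 540, the libraries with mixed sex-linked transcripts. The counts were likewise 3 without BM 815 and 0 without spleen 815, and they were 463 without BM 640 and 226 without spleen 640.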

How the data were processed

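RNA of column-enriched or sorted cells was sequenced with the TruSeq Stranded mRNA kit. Per the labels and the study's methods the authors trimmed reads with Trim Galore 0.6.5, aligned them to GRCm38/mm10 with STAR 2.5.3a and deposited whole-number counts per gene in 1 table for each library. The counting program, the gene annotation and the use of strand were not given in the sources used here. The 19555 genes that passed edgeR's filterByExpr (minimum count 10) were scaled by TMM and fitted over 21 libraries and 9 combinations of cell type and genotype with edgeR 4.0.16 (robust quasi-likelihood, Benjamini-Hochberg over all genes tested, threshold 0.05). Libraries of a group carry different animal numbers. Library totals ran from 34992610 to 104509425 counts, and depth limits precision mainly for genes with few counts. The SE of a log2 fold change is its size divided by the root of the F statistic. The label puts LSK and spleen CD11b+ cells in the same animal for 540 and 815, and deviations from the group means correlated at 0.0865 and 0.0529 for these pairs. For LSK and spleen libraries of different numbers the correlations ran from -0.210 (LSK 768 and spleen 540) to 0.129 (LSK 815 and spleen 540). A fit with the animal as a replicate block, DESeq2 1.42.0, limma-voom 3.58.1, other scaling and filters, and leaving out libraries were the alternatives. S3 blocks followed the animal labels, and control blocks followed the replicate numbers. LSK 768 was alone in its block and added nothing to the blocked comparison. Spleen 640 shared its block with BM CD11b+ 640 and with no LSK library. The fits were tested on simulated data.

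The comparison and the gene lists were chosen with earlier results of these data known. Genes were named if they were sort markers, Ptpn11, among the 10 largest changes in each direction without overlap (mean of at least 5 log2 CPM), up to 4 called members of a list in its main direction and up to 3 in the other (at least 3 log2 CPM), BCL-2 members, members of lists of at most 10, the 5 genes highest per exon length, called in the difference from MxCre mice, or the best known of a list. Promoters were matched by symbol to RefSeq (GRCm38.p6), for 7 of 10 primary granule, 21 of 24 late neutrophil and 23 of 32 cytokine genes listed. Gene positions are from the GENCODE annotation of GRCm38. Values of some genes that the rule would name are not reported here.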

Additional observations from a re-analysis of the deposited data

Results flagged for a closer look

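Hbb-bs stood out because the difference of spleen CD11b+ minus LSK cells was larger in S3 than in MxCre mice by the tested interaction. The call was lost with the replicate block, against the mean of the MxCre and Ptpn11D61Y/+ genotypes, and without any 1 S3 LSK library, spleen 540, either MxCre LSK library or MxCre spleen replicate 1. The difference was 8.86 log2 units (edgeR adjusted p = 0.0469), with all 3 S3 spleen libraries between 12.12 and 13.42 log2 CPM. Its reads may be divided with the near-identical Hbb-bt, and the part of red cells in the column-enriched samples was not tested.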

How the results depend on the processing

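The count of genes that differed between spleen CD11b+ and LSK cells was 2295 when tested against a change of 1 log2 unit, 1569 without both libraries of animal 540 and between 3006 and 6679 when 1 of the 6 libraries was left out, beside 5349. Under all other alternatives it was within 1.5 times of that. In the test of the difference from MxCre mice, 14 genes passed with scaling by library size alone, 10 with no filter on low counts, 0 with the replicate block (1763 at an unadjusted p under 0.05), 0 against the mean of the MxCre and Ptpn11D61Y/+ genotypes (1680), 50 in limma-voom, 827 in DESeq2 and between 0 and 215 when 1 library was left out, beside 1. Between spleen and BM CD11b+ cells, 7 passed with RLE factors, 1 with size alone, 17 with no filter, 0 with the libraries compared alone (660 at an unadjusted p under 0.05), 1 with the block, 547 in DESeq2 and between 0 and 463 when 1 library was left out, beside 11. The cause of these changes was not tested. Of the 204 genes that the naming rule picked and that passed the test, 79 no longer passed without both libraries of animal 540, 58 against a change of 1 log2 unit, 22 with size alone, 19 with the block and between 14 and 44 without 1 library. Beside the blocked values given above, the block ended the calls of Ms4a3, Prss57, Olfm4, Fn1, Fcer1a, Cxcl1, Cxcl3, Nfkbiz, Slc2a3, Hba-x and Thbs1 (adjusted p from 0.0520 to 0.305), and Itga4, Rplp1 and Igkc passed with it. It left T cell genes with 2 and heme synthesis and megakaryocyte genes with 1 each called higher, and caspases and related genes with 5 and mitotic and glycolysis genes with 2 each called lower.

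Scaling by library size alone moved medians with that of all genes, to -3.91 for stem and multipotent progenitor genes, -3.21 for HOXA genes, 1.70 for myeloid transcription factors, -2.42 for primary granule genes, 1.66 for pattern recognition receptors, 1.82 for the NADPH oxidase, 2.41 for cytokines and chemokines, 0.40 for growth factor receptors, 0.13 for effector BCL-2 genes, 1.18 for NF-kB genes, 0.67 for BH3-only genes, 0.36 for interferon-stimulated genes, 0.15 for ribosomal proteins, 0.27 for oxidative phosphorylation genes, -1.48 for ERK genes, -1.57 for S-phase genes, -1.79 for nucleolar genes, -1.02 for tRNA synthetases, 1.28 for lysosome genes, -3.71 for eosinophil, basophil and mast cell genes and -1.32 for epigenetic regulators. It turned the sign of the medians of homing genes (-0.0126), RAS core genes (-0.17), JAK, STAT and SOCS genes (-0.47), caspases and related genes (-0.49), glycolysis genes (-0.27), stroma and endothelial genes (-0.45, and -0.11 without both libraries of animal 540) and cyclin and CDK genes (-0.35), and called 7 homing, 4 RAS core, 8 ERK and 10 epigenetic genes lower and 3 cyclin and CDK genes higher. The cyclin and CDK median was also below 0 with the block (-0.27), in limma-voom (-0.41) and without both libraries of animal 540 (-0.19).

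With the replicate block the medians were -4.27 for stem genes, -3.27 for HOXA genes, 2.52 for Fc and complement receptors, 0.44 for growth factor receptors, 0.20 for RAS core genes and 0.10 for JAK, STAT and SOCS genes. When each library had to hold 10 counts they were -1.73 for stem genes, 1.20 for effector BCL-2 genes and 9.0 for globins, and with the libraries compared alone 9.09 for globins. Without both libraries of animal 540 they were 5.08 for late neutrophil genes and 0.0751 for JAK, STAT and SOCS genes, which stood at 0.097 with RLE factors, 0.0435 in limma-voom and 0.0968 in DESeq2.

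When 1 library was left out, medians ranged from -3.96 to -3.16 for stem genes, 2.38 to 3.74 for MHC class II genes, 2.58 to 3.72 for Fc and complement receptors, 0.20 to 1.03 for growth factor receptors, 0.29 to 0.43 for RAS core genes, -0.46 to 0.19 for cyclin and CDK genes and -3.56 to -2.23 for eosinophil, basophil and mast cell genes. Medians also moved by more than 1.5 times for caspases and related genes (from 0.03 in DESeq2 to 0.27 with the block), ERK genes (-1.69 with the block), S-phase genes (-1.64 without spleen 640), ribosomal proteins and oxidative phosphorylation genes (0.28 and 0.59 without spleen 815) and erythroid genes (0.59 with the block). Single genes that changed sign had not passed the test. Ly6a was at -0.33 in limma-voom. Bik was at 0.0067 with the libraries compared alone and 0.32 with the block, and from -0.72 to 0.47 when 1 library was left out. Cpox was at -0.61 with the block and from -1.25 to 2.01, Klrk1 at -0.0457 with size alone and from -0.51 to 1.26, and Klre1 at -0.62 with size alone, -0.75 in limma-voom and from -2.00 to 0.90. Prf1 was at -0.0668 with RLE factors, -0.65 with size alone, -0.0087 with no filter, -0.0667 in DESeq2, -0.91 without both libraries of animal 540 and from -0.53 to 0.72.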

Other observations

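LSK libraries carried immunoglobulin transcripts at high level, and these genes were named after their values were seen. Igkc, the kappa light chain constant region, had the highest level per exon length of all genes in LSK cells, 42953 ± 20748 TPM (SD, n = 3), and stood at 12.75, 12.89 and 11.13 log2 CPM in LSK cells and at 10.89, 10.72 and 7.87 in spleen cells (log2 FC -2.13 ± 0.87, edgeR adjusted p = 0.0777). Jchain, which joins secreted IgA and IgM, stood at 9.31, 9.85 and 8.40 log2 CPM in LSK cells and at 6.15, 7.11 and 3.54 in spleen cells (log2 FC -3.10 ± 0.98, edgeR adjusted p = 0.0290). Other immunoglobulin genes and genes known from plasma cells were examined with them and went both ways. Sdc1 was lower in spleen cells (log2 FC -1.43 ± 0.50, edgeR adjusted p = 0.0436). Igha, Ighg2b, Tnfrsf17 and Derl3 (log2 FCs -3.13, -0.64, -2.12 and -0.48) did not pass. Neither did Mzb1, Irf4, Prdm1 and Xbp1 (log2 FCs 1.33, 1.68, 0.71 and 0.06). LSK cells of MxCre mice were at 13.25 and 12.25 log2 CPM of Igkc. The source of these transcripts was not tested.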
